A study of Mus musculus with 9 samples.

Results

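RAD21 interactions in which at least 1 end is not the anchor of a called CTCF interaction were examined in mouse embryonic stem cells. RAD21 is a subunit of cohesin, the ring complex that extrudes chromatin loops. Each end of a RAD21 interaction was assigned to a 2 kb bin, and the bin was said to carry a CTCF anchor when it was an end of any interaction of the CTCF list assigned the same way. By this rule 3984 of the 23630 RAD21 interactions (16.9%) were members, of which 326 had a CTCF anchor at neither end and 3658 at 1 end. The other 19646 had CTCF anchors at both ends and served as the comparison. The members were selected on the measured RAD21 and CTCF lists, so their contact counts, predicted counts and distances to CTCF anchors are given as description only. An end without a CTCF anchor is an end with no called CTCF interaction, which is not the same as an end without bound CTCF.

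The 9 libraries were made by MNase HiChIP, in which crosslinked chromatin is cut with micrococcal nuclease, neighbouring ends are ligated, and an antibody then selects the ligated fragments. The cells were the line E14 with the genotype CTCF AID, grown in a serum-free medium with leukemia inhibitory factor and the inhibitors PD0325901 and CHIR99021. All groups carried this genotype. RAD21 (3 libraries) and CTCF (2 libraries) were profiled without IAA, and H3K27ac, the acetylated histone found at active regulatory elements, without IAA (2 libraries) and after 12 h of IAA (2 libraries). IAA is an auxin, which makes cells degrade an AID-tagged protein. How far CTCF was depleted was not analysed here, nor was RAD21 with IAA, and the labels do not give the number of clones. Each group is 1 list of called interactions pooled over its libraries, so the values have no replicate error. The lists differ in depth, with model totals from 1517698 contacts for RAD21 to 14629323 for H3K27ac with IAA, and a pair missing from a list was not called at this depth.

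Cohesin loads onto chromatin, moves along it and enlarges a loop until it is released or halted. CTCF bound to its motif halts cohesin that arrives from the side its N terminus faces, so that the ends of most strong loops in mammals carry CTCF motifs pointing towards each other. Cohesin is also found at active promoters and enhancers without CTCF, where loading factors, transcription and the acetylated chromatin itself are known to accompany it.

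The CTCF core motif in the reference sequence is shown first for the ends that do carry a CTCF anchor. Of the 8 interactions with 1 CTCF anchor that had the most RAD21 contacts, 7 held a match to the core with up to 1 mismatch in the 2 kb bin of the CTCF end. In all 7 the match pointed to the partner that lacked a CTCF anchor. The 30 bases around each match are given on GRCm38.p6 from RefSeq, 5′ to 3′ on the strand of the match, with the core in capitals. The Ttc7 bin held 3 matches, of which 1 is shown, and each of the other 6 bins held 1. The bin labelled Fgfr2 intron lies in the span annotated as that gene. Its nearest start site was that of Oat, 24.4 kb away.
downstream of Rxra (chr2:27765107-27765136, reverse strand): aaatatctCCAGCAGGGGGCAGtgctaccc
near Spats1 (chr17:45478626-45478655, forward strand): accggtgtCCACCAGAGGGCAGtgtaaacc
Fgfr2 intron (chr7:132551962-132551991, reverse strand): gtatttggACAGCAGGGGGCACtgccggca
Ttc7 intron (chr17:87314222-87314251, forward strand): cctttaacCCACTAGATGCCAGaagcaccc
Pick1 (chr15:79243365-79243394, forward strand): gcctttgaCCAGGAGGTGGCGCtgctgtcc
Slc27a4 (chr2:29817850-29817879, forward strand): aaatatggCCAGCAGAGGGAGCaaggggct
Zbtb45 (chr7:13009254-13009283, forward strand): tcacgtggCCGCCAGAGGGAGCctgcgaac

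These promoters stand for the other kind of end, a start site without a CTCF anchor. They are those of Tbl1xr1, Klf13 and the metallothionein genes Mt1 and Mt2. The Tbl1xr1 interaction had the most RAD21 contacts among the 326 without any CTCF anchor. The Klf13 start site lay in the bin next to a CTCF anchor bin. Mt1 and Mt2 form the 2 ends of 1 interaction. Each promoter runs from 250 bases before to 50 bases after the start site, on GRCm38.p6 from RefSeq, 5′ to 3′ on the strand of the gene. Capitals mark the GC box GGGCGG on either strand in Tbl1xr1 and Klf13, and the core of the metal response element, TGCACNC or TGCGCNC on either strand, in Mt1 and Mt2.
Tbl1xr1 promoter (chr3:22076402-22076701, forward strand): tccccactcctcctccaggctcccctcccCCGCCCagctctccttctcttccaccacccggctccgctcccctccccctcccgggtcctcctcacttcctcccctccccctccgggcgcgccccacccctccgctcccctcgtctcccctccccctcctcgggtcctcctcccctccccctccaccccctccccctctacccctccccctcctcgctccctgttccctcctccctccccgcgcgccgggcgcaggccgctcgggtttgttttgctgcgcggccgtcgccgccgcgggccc
Klf13 promoter (chr7:63938866-63939165, reverse strand): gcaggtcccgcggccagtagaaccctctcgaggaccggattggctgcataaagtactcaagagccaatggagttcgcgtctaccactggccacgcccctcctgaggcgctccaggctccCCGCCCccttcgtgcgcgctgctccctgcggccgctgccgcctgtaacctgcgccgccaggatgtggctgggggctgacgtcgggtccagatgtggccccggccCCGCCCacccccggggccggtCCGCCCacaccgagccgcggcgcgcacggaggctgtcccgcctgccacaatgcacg
Mt1 promoter (chr8:94178839-94179138, forward strand): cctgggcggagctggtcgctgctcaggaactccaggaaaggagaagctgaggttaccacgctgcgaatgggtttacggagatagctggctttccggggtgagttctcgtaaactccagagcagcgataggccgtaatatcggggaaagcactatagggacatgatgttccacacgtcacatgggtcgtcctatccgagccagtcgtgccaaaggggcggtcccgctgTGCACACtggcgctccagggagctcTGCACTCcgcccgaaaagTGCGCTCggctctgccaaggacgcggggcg
Mt2 promoter (chr8:94172368-94172667, forward strand): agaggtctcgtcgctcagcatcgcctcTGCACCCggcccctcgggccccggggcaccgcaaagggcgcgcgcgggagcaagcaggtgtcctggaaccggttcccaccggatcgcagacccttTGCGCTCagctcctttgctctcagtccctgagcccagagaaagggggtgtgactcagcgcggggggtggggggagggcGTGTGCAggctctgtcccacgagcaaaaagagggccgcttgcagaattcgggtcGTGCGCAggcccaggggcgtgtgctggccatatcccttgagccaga
The Klf13 promoter held 3 GC boxes and the Tbl1xr1 promoter 1. Of 32851 mouse promoters of this length, 35.7% held at least 1 and 19.5% held 2 or more. The Mt2 promoter held 4 metal response cores and the Mt1 promoter 3, where 25.7% of all promoters held at least 1 and 0.517% held 4 or more. These matches describe the reference sequence and are not measured binding.

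Ends without a CTCF anchor rarely carried the CTCF core. The 3984 interactions had 3453 distinct bins of this kind, of which 17.0% held a core match (95% Wilson interval 15.8 to 18.3). The share was 69.7% (67.9 to 71.5) in the CTCF ends of interactions with 1 CTCF anchor and 59.5% (58.7 to 60.2) in the ends of interactions with 2. The bins without a CTCF anchor were still above the same bins moved by 10000 bp, at 10.3% (9.31 to 11.3), and above all 1279270 bins of the genome, at 5.43%. A core without any mismatch was found in 2.87% of them (2.36 to 3.48), against 26.2% (24.5 to 27.9) of the CTCF ends. Intervals here and below cover counting error only, and bins and interactions are not replicates.

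The direction of the core also differed between the ends. At the CTCF ends of interactions with 1 CTCF anchor, the core pointed to the partner in 2272 of 2488 interactions with matches on a single strand, or 91.3% (90.1 to 92.4). The share was 92.4% (90.2 to 94.1) when the partner held a start site and 90.9% (89.4 to 92.1) when it did not, and these intervals overlap. Interactions with 2 CTCF anchors gave 89.2% (88.8 to 89.6) over both ends. At the ends without a CTCF anchor, the few cores pointed to the partner in 375 of 528 cases, or 71.0% (67.0 to 74.7). In interactions with no CTCF anchor the share was 75.9% (85 of 112, 67.2 to 82.9).

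Sequence of the promoter type was common at these ends. The GC box, the site of Sp and Klf factors, was present in 58.8% of the bins without a CTCF anchor (57.1 to 60.4), against 30.3% (28.8 to 31.8) of the bins moved by 10000 bp, 49.8% (47.8 to 51.7) of the CTCF ends of interactions with 1 CTCF anchor, 44.0% of the ends with 2 and 15.6% of all bins. It was present in 89.7% of the 1009 such bins that held a start site and in 46.0% of the 2444 that did not. The median number of CpG dinucleotides was 34 per bin, against 31 in the CTCF ends of interactions with 1 CTCF anchor, 28 in the ends of those with 2, 22 in the moved bins and 14 over all bins. The motif AAGGTCA, bound by ESRRB, an orphan nuclear receptor of the naive state, was found on either strand in 37.5% (35.9 to 39.2) against 32.6% of all bins. The octamer ATTTGCAT, bound by POU factors such as OCT4, was found in 8.75% against 16.3%, and the YY1-type AAGATGGC in 13.3% against 16.8%. The ends with 2 CTCF anchors held these 3 motifs in 32.2%, 8.70% and 15%, so the low octamer share was common to both kinds of end. In the bins moved by 10000 bp they were at 34.1%, 10.3% and 15.2%. The bins differed from the genome in base composition as well, with a median GC content of 49.9% against 41.4%, and the part this has in the motif shares was not tested.

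**Figure D1:**
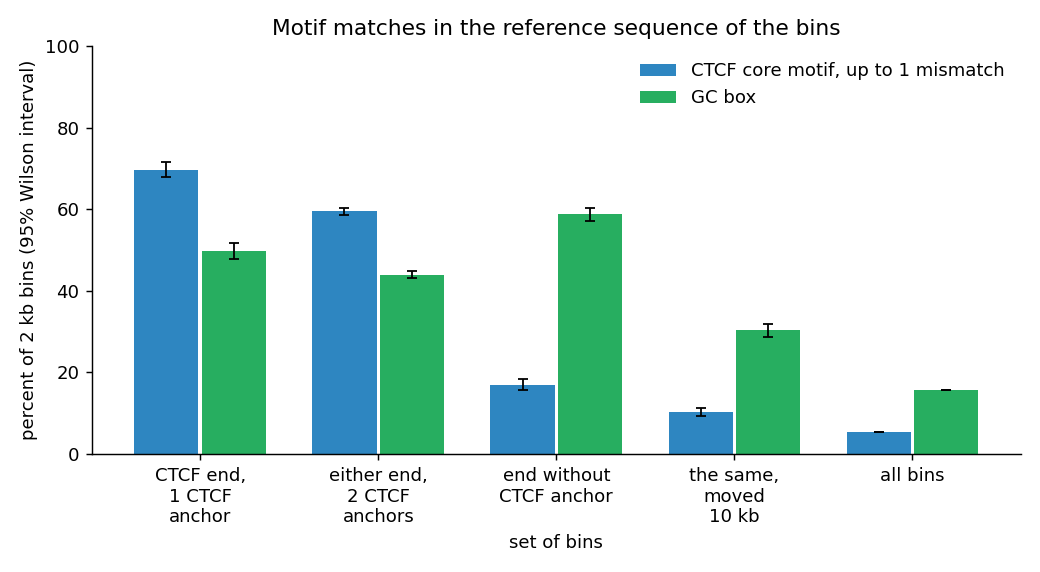
Percent of 2 kb bins whose reference sequence holds a match to the CTCF core motif (blue, up to 1 mismatch) or the GC box (green), by set of bins on the horizontal axis; bars start at 0 and error bars are 95% Wilson intervals. The core falls from 69.7% in CTCF ends to 17.0% in ends without a CTCF anchor, where the GC box is at 58.8%.

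Members spanned shorter distances than the comparison. The median span was 35.0 kb with no CTCF anchor (quartiles 15.2 and 95.8 kb), 81.5 kb with 1 (34.0 and 166 kb) and 133 kb with 2 (67.0 and 249 kb). A span under 20 kb was found in 33.7% (28.8 to 39.0), 14.7% (13.5 to 15.8) and 4.53% (4.25 to 4.83). At least 1 CTCF anchor bin lay between the ends in 26.7% of the interactions with no CTCF anchor, in 74.3% of those with 1 and in 87.8% of those with 2. Both ends lay in 1 annotated gene in 21.2% (17.1 to 25.9), 13.8% (12.7 to 14.9) and 7.74% (7.37 to 8.12). The values used by the rule, given as description, were lower in the members. The median RAD21 contact count was 9 with no CTCF anchor, 11 with 1 and 13 with 2, and the median ratio of observed to predicted contacts was 4.72, 4.56 and 5.69. Within interactions with 1 CTCF anchor, the median RAD21 coverage was 341 at the end without the CTCF anchor and 1292 at the end with it.

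**Figure D2:**
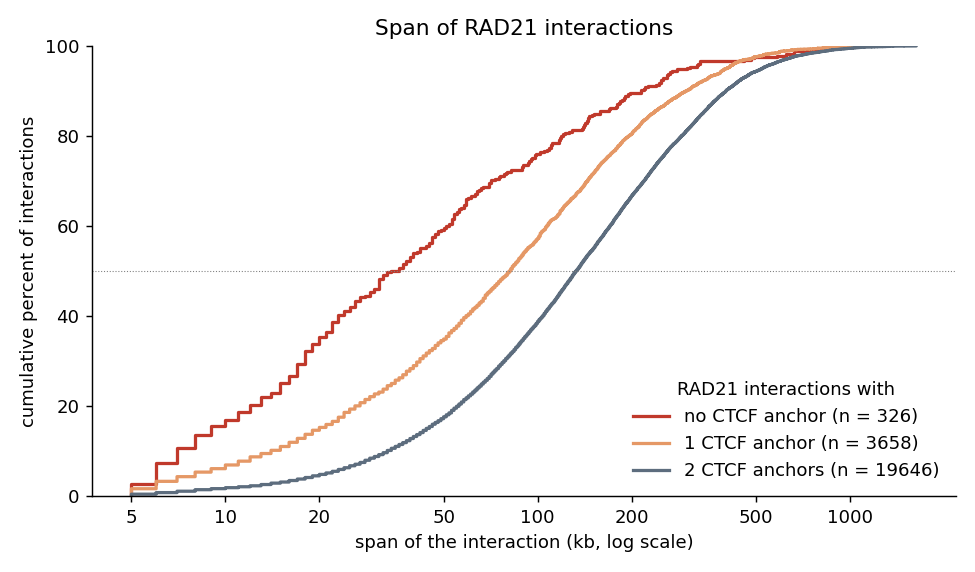
Cumulative percent of RAD21 interactions (vertical axis) by span in kb (horizontal axis, log scale) for interactions with no, 1 and 2 CTCF anchors; the dotted line marks 50%. The medians lie at 35.0, 81.5 and 133 kb.

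Many of the ends without a CTCF anchor lay close to one. Of the 3453 bins, 24.9% were the bin next to a CTCF anchor bin, and 10.7% were over 50 kb away. In interactions with no CTCF anchor, the end farther from any CTCF anchor bin was at a median distance of 32.0 kb, and 80 of 326 (24.5%, 20.2 to 29.5) had an end over 100 kb away. In those with 1 CTCF anchor the median was 6 kb, and 60 of 3658 (1.64%, 1.28 to 2.11) had an end over 100 kb away. Just inside the rule, the 1045 interactions with 1 CTCF anchor whose other end lay in the bin next to one had a median of 11 RAD21 contacts and a span of 83.0 kb. Just outside it, the 3344 interactions with 2 CTCF anchors of which 1 came from a single CTCF interaction had a median of 11 contacts and a span of 111 kb. Start sites at 1 end or more were at 41.2% and 31.1% in these groups, and H3K27ac anchors at both ends without IAA at 37.2% and 16.5%. The core motif was present in 30.5% (26 to 35.3) of the bins over 50 kb from a CTCF anchor and in 13.3% (11.2 to 15.7) of those next to one.

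The members overlapped one another in part, with 315 and 3532 distinct bin pairs among the interactions with no and 1 CTCF anchor. They made up 13.2% to 20.1% of the RAD21 interactions on each autosome, and 29.7% on chromosome X, where 63 of 212 interactions were members. Of the 3453 bins without a CTCF anchor, 82.9% took part in 1 member interaction, 13.4% in 2 and 0.898% in 5 or more.

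Protein-coding start sites were more frequent at the members. A start site lay in the bin of at least 1 end in 42.3% of interactions with no CTCF anchor, 40.0% with 1 and 25.7% with 2, which are differences from the last of 16.6 points (11.3 to 22.1) and 14.3 points (12.6 to 16.0). Start sites at both ends were found in 11.3% (37 of 326), 4.26% and 2.87%. For a start site at 1 end or more, the difference had this direction on 13 of the 15 chromosomes with at least 10 interactions with no CTCF anchor and on 20 of 20 for those with 1. This difference was not seen among interactions of 5 to 20 kb, where the shares were 40.9%, 46.6% and 44.5% and the differences were -3.59 points (-12.9 to 6.30) and 2.15 points (-3.17 to 7.47). Above 100 kb they were 34.6%, 35.6% and 21.2%.

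Within interactions with 1 CTCF anchor, the start site was more often at the end without it. That end held a start site in 28.4% (27 to 29.9) of 3658 interactions and the CTCF end in 15.9% (14.7 to 17.1). The CTCF end lay outside annotated genes in 38.1% and the other end in 27.9%. For the 942 interactions whose end without a CTCF anchor held start sites of 1 strand, the CTCF end lay downstream of the start site in 43.0% (39.9 to 46.2) and within the body of that gene in 7.43%.

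H3K27ac interactions were anchored at the members more often than at the comparison. Without IAA, both ends were H3K27ac anchors in 60.4% of interactions with no CTCF anchor (55.0 to 65.6), 32.3% with 1 (30.8 to 33.9) and 18.7% with 2 (18.2 to 19.3). After IAA these shares were 56.4% (51.0 to 61.7), 19.6% (18.4 to 20.9) and 7.30% (6.94 to 7.67). The difference between interactions with no CTCF anchor and those with 2 was 41.7 points (36.3 to 46.9) without IAA and 49.1 points (43.7 to 54.4) after it. Without IAA, the difference kept this sign in every span class. It was 31.6 points (22.5 to 38.8) at 5 to 20 kb and 13.2 points (5.04 to 23.8) above 100 kb. The ends of interactions with 1 CTCF anchor had overlapping intervals without IAA, at 45.7% (44.1 to 47.3) for the end without the CTCF anchor and 47.8% (46.1 to 49.4) for the CTCF end. After IAA they were 39.5% (38 to 41.1) and 28.8% (27.4 to 30.3).

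**Figure D3:**
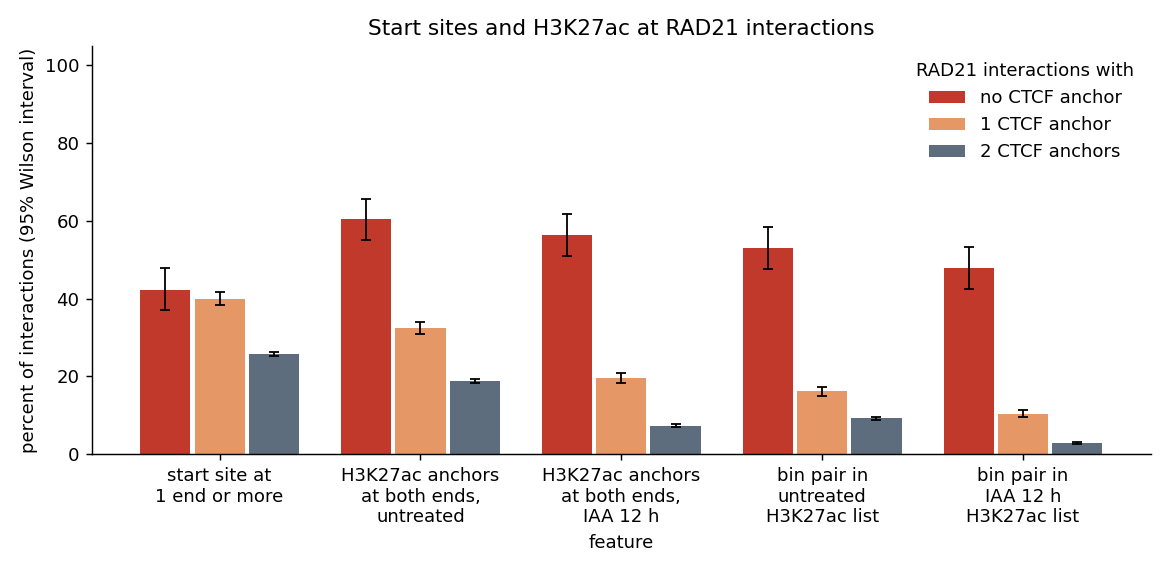
Percent of RAD21 interactions (vertical axis) with the feature named on the horizontal axis, for interactions with no CTCF anchor (red, n = 326), 1 (orange, n = 3658) and 2 (grey, n = 19646); bars start at 0 and error bars are 95% Wilson intervals. For all 4 H3K27ac measures the red bars lie above the orange and the orange above the grey, and for start sites the red and orange bars overlap in their intervals.

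Interactions called on the same bin pair were also most frequent with no CTCF anchor. Of the interactions with no CTCF anchor, 173 of 326 (53.1%, 47.6 to 58.4) were also in the untreated H3K27ac list, against 16.2% (15 to 17.4) with 1 CTCF anchor and 9.18% (8.79 to 9.59) with 2. After IAA the shares were 47.9% (42.5 to 53.3), 10.4% (9.44 to 11.4) and 2.82% (2.60 to 3.06). For no CTCF anchor the difference from 2 was 45.9 points (36.6 to 53.6) at 5 to 20 kb, 46.5 points (35.7 to 56.0) at 20 to 50 kb, 23.5 points (12.1 to 36.8) at 50 to 100 kb and 16.0 points (8.52 to 26.2) above that, all without IAA. For 1 CTCF anchor the untreated difference was 7.58 points (2.54 to 12.7) at 5 to 20 kb, 8.39 points (4.92 to 12.0) at 20 to 50 kb and 0.477 points (-1.92 to 3.16) at 50 to 100 kb. Above 100 kb, where 43.0% of these interactions lie, it was 1.02 points (-0.0778 to 2.31) and positive on 9 of 20 chromosomes.

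Untreated H3K27ac interactions of the members were called again after IAA more often than those at 2 CTCF anchors. Over the whole untreated H3K27ac list 42.9% of 36274 bin pairs were called again. The share was 86.1% (149 of 173, 80.2 to 90.5) for RAD21 interactions with no CTCF anchor, 56.0% (331 of 591) for those with 1 and 26.8% (484 of 1804, 24.8 to 28.9) for those with 2. The share called again was higher at higher contact counts, so the classes were compared at like counts. At 10 to 14 untreated contacts they were 60.7%, 27.3% and 12.6%, at 15 to 24 contacts 82.4%, 58.4% and 37.8%, and at 25 contacts or more 98.9%, 95% and 82.4%. In these 3 count classes the difference from 2 CTCF anchors was 48.1 points (29.6 to 64.0), 44.5 points (31.1 to 53.8) and 16.5 points (10.2 to 21.4) for no CTCF anchor. For 1 CTCF anchor it was 14.7 points (7.79 to 22.4), 20.6 points (11.2 to 29.5) and 12.6 points (7.05 to 17.9). By span, the shares for no CTCF anchor ranged from 75% to 90.7%, while those for 1 CTCF anchor went from 74.9% at 5 to 20 kb to 18.4% above 100 kb. In that last class the difference of 1 CTCF anchor from 2 was 7.22 points (-0.127 to 16.9).

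**Figure D4:**
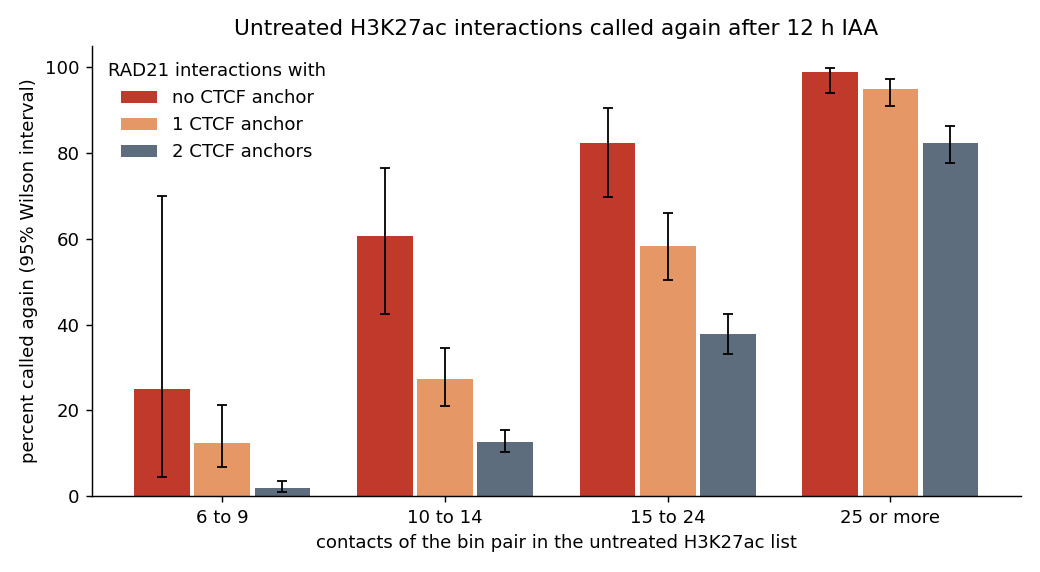
Percent of untreated H3K27ac bin pairs that were called again after 12 h of IAA (vertical axis, 95% Wilson intervals), by untreated contact count (horizontal axis) and by the number of CTCF anchors of the RAD21 interaction on the same pair; bars start at 0. At 15 to 24 contacts the bars stand at 82.4%, 58.4% and 37.8%, and only 4 pairs stand behind the leftmost bar.

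At pairs called in both H3K27ac lists, few contact counts passed the test. The 15551 shared pairs were tested with the exact two-sided binomial test and Benjamini-Hochberg adjustment, which compares the 2 pooled lists and not the conditions. Of all shared pairs 0.135% had an adjusted p under 0.05 (0.0386% lower and 0.0965% higher after IAA). Of the 141 pairs at RAD21 interactions with no CTCF anchor 0 passed, and of the 309 pairs at interactions with 1 CTCF anchor 1 passed, with fewer contacts after IAA. At an unadjusted p under 0.05 there were 12 (8.51%; 8 lower and 4 higher) with no CTCF anchor and 26 (8.41%; 22 lower and 4 higher) with 1. That share was 14.5% with 2 CTCF anchors and 4.41% over all shared pairs. The median log2 difference, IAA against untreated, was -0.13 for no CTCF anchor, -0.14 for 1, -0.23 for 2 and 0.03 over all shared pairs. Counts were 2-fold or more lower at 1.42% of the pairs with no CTCF anchor, 3.24% with 1 and 9.56% with 2, against 1.23% of all shared pairs. They were 2-fold or more higher at 1.42%, 0.647% and 0.517%, against 1.28%. Scaling by the model totals of the lists moved the median of all shared pairs to -0.22 and those of the members to -0.38 and -0.39. It turned the split of calls over all shared pairs from 6 lower and 15 higher to 54 lower and 6 higher, with 1 call among pairs with no CTCF anchor and 5 among those with 1, all lower. These values cover pairs called in both lists, so a pair that fell below the calling threshold after IAA is not among them.

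**Figure D5:**
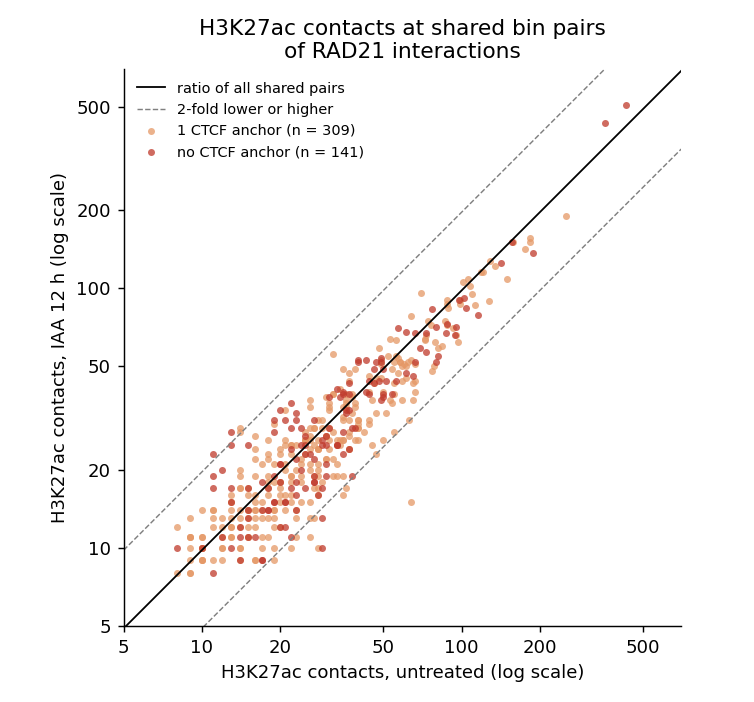
H3K27ac contacts after 12 h of IAA (vertical axis, log scale) against untreated contacts (horizontal axis, log scale) for the 141 shared bin pairs with no CTCF anchor (red) and the 309 with 1 (orange); the line is the ratio of all shared pairs and the dashed lines lie 2-fold from it. Most points lie close to the line, and the orange point at 64 and 15 contacts is the pair between Dusp27 and Gpa33.

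The interaction with the most RAD21 contacts and no CTCF anchor joined the start site of Tbl1xr1, whose product is a subunit of the NCoR and SMRT corepressor complexes, to a site 140 kb upstream outside annotated genes (chr3:21936001-21937000 and chr3:22076001-22077000). It had 95 contacts where the authors' model predicted 3.86. Both ends were H3K27ac anchors in both lists, and the pair had 33 untreated H3K27ac contacts and 25 after IAA (log2 difference -0.37, 95% interval -1.12 to 0.38). The CTCF list held no anchor between chr3:20510001 and chr3:27152000, a stretch of 6.64 Mb with 30 untreated H3K27ac interactions and 4 RAD21 interactions, all 4 at the Tbl1xr1 start site. The list alone does not tell whether CTCF interactions were looked for over this stretch, which limits what the missing CTCF anchor means for Tbl1xr1. In the other direction the start site met a site 80 kb downstream (chr3:22156001-22157000) with 12 RAD21 contacts, and H3K27ac contacts there were 13 and 25.

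The next by RAD21 contacts were of several kinds. An interaction of 47 contacts joined the start sites of Gm10801 and Gm10800 (chr2:98662001-98663000 and chr2:98667001-98668000), where 50.9% and 60.3% of the bins are soft-masked repeats. Its ratio of observed to predicted contacts, 1.98, was the lowest among the 326, and neither end was an H3K27ac anchor. The RAD21 coverage of its ends was 3141 and 6780, where the median over ends of this class was 408 and the highest value 6780. A site 46.8 kb from the start of Sik1, a salt-inducible kinase gene (chr17:31808001-31809000), had 28 contacts to a site 7 kb away and 26 to one 19 kb away. Its H3K27ac contacts on the first pair were 142 untreated and 125 after IAA. This site lay in the bin next to a CTCF anchor bin and held a core match with up to 1 mismatch. Its 2 partners lay 2 and 7 bins of 2 kb from a CTCF anchor bin. A site in an exon of Klhdc7a, 0.0260 kb from the start site of that gene, had 27 RAD21 contacts to a site 11 kb away. The H3K27ac contacts of this pair were 19 and 28.

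Among interactions with no CTCF anchor, a start site and a call in both H3K27ac lists, none of the 8 with the most untreated H3K27ac contacts passed the test. The bin with the start site of Klf9, a Krüppel-like factor, and a site 5 kb away had 116 H3K27ac contacts untreated and 79 after IAA (log2 difference -0.53, 95% interval -0.94 to -0.11), with an adjusted p of 0.778 by the binomial test. Mt1 and Mt2, which encode metal-binding proteins, were joined over 7 kb (chr8:94172001-94173000 and chr8:94179001-94180000) with 12 RAD21 contacts and 102 and 92 H3K27ac contacts. Klf13, another Krüppel-like factor, had 80 and 71 H3K27ac contacts to a site 18 kb away. The translation factor genes Eif4a2 and Eif4g2 had 87 and 67, and 66 and 52. Prr14 and Fbrs, 2 neighbouring promoters, had 73 and 57. Rnf44 had 65 and 46, and Nsd1, a histone H3 lysine 36 methyltransferase, 56 and 44. The 8 log2 differences ran from -0.53 to -0.12. These pairs were chosen for high untreated counts, which by itself favours a lower count after IAA, so their common sign is not informative.

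Outside this choice by start site, the pairs with the most untreated H3K27ac contacts among the 326 were chosen after their values were seen. The first, outside annotated genes (chr15:37072001-37073000 and chr15:37080001-37081000) had 428 contacts untreated and 509 after IAA. The second, also outside genes (chr5:144669001-144670000 and chr5:144678001-144679000) had 356 and 433. A pair inside Tet2, which encodes a 5-methylcytosine dioxygenase, had 188 and 136.

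The longest interaction without a CTCF anchor ran 877 kb from a site near Sox4 into an intron of Cdkal1 with 7 RAD21 contacts. Its ends lay only 1 and 2 bins of 2 kb from a CTCF anchor bin. It would therefore leave this class if a CTCF anchor within 1 bin counted. The next 2 ran 825 and 818 kb to the same bin beside the start site of Basp1, with 9 and 7 contacts. None of these 3 pairs was in an H3K27ac list.

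Among interactions with 1 CTCF anchor, 3 of the 8 with the most RAD21 contacts were in the untreated H3K27ac list and none in the list after IAA. Over the whole class these shares were 16.2% and 10.4%, and 56.0% of its untreated pairs were called again. With 8 interactions these counts set no difference from the class. The first joined a site between Wdr5 and Rxra to a CTCF end just past the 3′ end of Rxra, a retinoid receptor gene (chr2:27552001-27553000 and chr2:27765001-27766000) with 92 contacts, where 3.01 were predicted, and with 12 H3K27ac contacts untreated and no call after IAA. The second joined sites 3.06 kb from the start of Spats1 and 2.32 kb from that of Tmem151b with 90 contacts, and its H3K27ac pair had 10 contacts untreated and was not called after IAA. The third had both ends in introns of the span annotated as Fgfr2, a fibroblast growth factor receptor gene. They lay 325 kb apart with 76 contacts, and neither was an H3K27ac anchor. The start sites nearest to these ends were not of Fgfr2 but of Cpxm2, 71.3 kb away, and Oat, 24.4 kb away. Only the annotated span ties these ends to Fgfr2. Pcdhga12, a clustered protocadherin gene, had its start site at the CTCF end and 53 contacts with an intron of Diaph1. Zbtb45 at the CTCF end and Chmp2a at the other end, both start sites 25 kb apart, had 50 RAD21 contacts. Their pair had 29 H3K27ac contacts untreated and was not called after IAA. The longest, at 1269 kb, had the start site of Sap130 at the end without a CTCF anchor and 6 RAD21 contacts, and the next, at 1035 kb, had its CTCF end in an intron of Bcl11b and 12.

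Among interactions with 1 CTCF anchor chosen in the same way, with the same limit on their sign, log2 differences ran from -0.39 to 0.06 and none passed the test. Dppa5a, a gene of pluripotent cells, had its start site at the CTCF end and 252 contacts untreated and 189 after IAA with a site 6 kb away (chr9:78369001-78370000 and chr9:78375001-78376000; adjusted p 0.597 by the binomial test). Mcl1, an anti-apoptotic gene, had 183 and 156, and Hspa8, a constitutive chaperone gene, 134 and 122. Zfp42, which encodes the pluripotency marker REX1, had 119 and 115 to a site 14 kb away. Plekhf2 had 108 and 102, Ywhag 106 and 108, Fasn, the fatty acid synthase gene, 88 and 87, and Cdkn1b, a cyclin-dependent kinase inhibitor gene, 79 and 62. In 7 of these 8 the CTCF anchor was at the start site, and Mcl1 was the exception. The whole class ran the other way, with a start site only at the CTCF end in 425 interactions and only at the other end in 883.

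The 1 pair that passed the test lay between an intron of Dusp27 and an exon of Gpa33 (chr1:166125001-166126000 and chr1:166153001-166154000), with the CTCF anchor at the Gpa33 end. Its H3K27ac contacts fell from 64 to 15, a log2 difference of -2.06 (95% interval -2.88 to -1.25) with an adjusted p of 8.05e-05 by the binomial test. Its RAD21 contacts were 18. The largest rise among members with at least 20 H3K27ac contacts, from 13 to 28, had a log2 difference of 1.14 (0.19 to 2.09) and did not pass, with an adjusted p of 0.923 by the binomial test.

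The 8 bins without a CTCF anchor that had the most member interactions had 7 to 21 each. Of these 8, 0 held a start site and 0 a core match with up to 1 mismatch, where the shares over all 3453 such bins were 29.2% and 17.0%. H3K27ac anchors were 4 of 8 without IAA and 1 of 8 after it, against 45.8% and 41.1%. With 8 bins these counts set no difference from the other bins. The first (chr15:79466001-79468000, near Csnk1e) lay in the bin next to a CTCF anchor bin and had 21 interactions with 10 to 66 contacts and spans of 12 to 243 kb, none of them in an H3K27ac list. A bin in the span annotated as Fgfr2 (chr7:132226001-132228000), 71.3 kb from the nearest start site, that of Cpxm2, had 9, all over 245 to 672 kb. A bin in Sez6 (chr11:77966001-77968000) had 8, all to sites 139 to 146 kb away whose nearest start site was that of Myo18a. A bin 47.3 kb from the start of Azin1 (chr15:38470001-38472000) was the 1 that was an anchor in both H3K27ac lists. A pair of it with the start site of Klf10, a further Krüppel-like factor, had 22 H3K27ac contacts untreated and 18 after IAA.

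Genes of chosen lists were read against all protein-coding genes, of which 1513 of 21840 (6.93%) had a start site at a member end and 1100 (5.04%) at an end without a CTCF anchor. Start sites of 12.2% of all protein-coding genes lay at ends of interactions with 2 CTCF anchors. Of 29 pluripotency regulators, 6 had a start site at a member end, and for 5 of them that end was the CTCF end. Interactions with 2 CTCF anchors held start sites of 8 of the 29, so presence at members did not set this list apart from the comparison. Tbx3, a T-box factor of the naive state, had 5 member interactions of 56 to 107 kb with 11 to 22 RAD21 contacts. H3K27ac contacts were 14 untreated and 28 after IAA on the 56 kb pair and 19 and 12 on the 57 kb pair, both with an adjusted p of 1.00 by the binomial test. The 90 and 91 kb pairs had 9 and 13 contacts untreated and were not called after IAA, and the 107 kb pair was in neither list. Nanog, a core pluripotency factor, had 19 RAD21 contacts to a site 5 kb away that lacked a CTCF anchor. The 2 kb bins of that pair lie 4 kb apart, under the smallest distance of the H3K27ac lists, 6 kb, so it could not be in them. Tfap2c had 22 to a site 44 kb away, a pair in neither H3K27ac list. Tdgf1, a Nodal co-receptor gene, was the 1 with its start site at the end without a CTCF anchor, with 12 RAD21 contacts and H3K27ac contacts of 52 and 55.

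Developmental transcription factors had their start sites at the end without a CTCF anchor in all 4 of the 45 that were at members, among them Gata2, En2 and Sox1. Interactions with 2 CTCF anchors also held start sites of 4 of the 45. Gata2, a factor of blood development, had 2 start sites that met the same CTCF end in an intron of Dnajb8, with 12 and 16 RAD21 contacts over 49 and 44 kb. Sox1, a factor of the neural lineage, had 9 contacts over 166 kb and En2, a homeobox gene of the midbrain, 9 over 42 kb. The pairs of Gata2, En2 and Sox1 were in neither H3K27ac list, and none of their ends was an H3K27ac anchor.

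Signalling genes of embryonic stem cells were at members in 5 of 22, all 5 with the start site at an end without a CTCF anchor. At interactions with 2 CTCF anchors, 4 of the 22 had a start site. Lifr, which encodes the receptor for leukemia inhibitory factor, had 10 RAD21 contacts over 220 kb on 1 side and 15 over 97 kb on the other. Axin2, a Wnt target, had 9 contacts over 31 kb with no CTCF anchor at either end. Of the chromatin and DNA methylation genes, Uhrf1, needed for maintenance methylation, met the CTCF end at Plin3 12 kb away with 34 RAD21 contacts and H3K27ac contacts of 48 and 59. Mtf2, a Polycomb-associated gene, had 11 RAD21 contacts with no CTCF anchor at either end and H3K27ac contacts of 31 and 38. Stag1 was the 1 of 20 cohesin and architectural genes at a member, with its start site at the CTCF end. Interactions with 2 CTCF anchors held start sites of 9 of these 20 genes, and of 4 of the 20 chromatin and DNA methylation genes.

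Of 96 genes whose symbols begin like those of ribosomal proteins, 13 were at members and 9 had their start site at an end without a CTCF anchor. That choice by symbol also took in Rps6ka5, Rps6kb2 and Rps19bp1, which do not encode ribosomal proteins. Interactions with 2 CTCF anchors held start sites of 17 of the 96. The bin with the start sites of Rps27a and Clhc1 was joined to that of Rtn4 over 144 kb with no CTCF anchor at either end, both lying 85 or more bins of 2 kb from a CTCF anchor (chr11:29548001-29549000 and chr11:29692001-29693000). It had 14 RAD21 contacts where 1.70 were predicted and H3K27ac contacts of 30 untreated and 25 after IAA. The Rtn4 bin held a core match with up to 1 mismatch that pointed to the partner, and the Rps27a bin held none. The bin of Rpl9 and Lias was joined to that of Rfc1 over 56 kb with 8 RAD21 contacts, and its H3K27ac contacts were 29 and 13, with an adjusted p of 0.929 by the binomial test.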

How the data were processed

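Contact counts in the 4 deposited lists are raw, per the file headers and their whole values, and per the labels each list pools all libraries of its group. Per the file headers, each row also holds the coverage of both bins, peak flags, the predicted contact count of the authors' model (a signal), its probability (a fraction), a p-value and a q-value, and no deposited q-value exceeds 0.05. The totals of contacts behind the authors' models were recovered as the deposited predicted count divided by the deposited fraction. Bins were 1 kb for RAD21 and CTCF and 2 kb for H3K27ac. The submitters' processing notes name Trim Galore, BWA, MACS2, deepTools and mm10, and other settings are not given in the sources used here. A ratio of observed to predicted counts was formed from the deposited columns.

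Ends were assigned to 2 kb bins. Start sites are those of protein-coding transcripts of the GENCODE M21 basic annotation. The core motif of 14 bases was searched on both strands. Shares carry 95% Wilson intervals and differences of shares Newcombe intervals. H3K27ac contacts after IAA and untreated were compared with the exact binomial test, with the expected split from the totals over shared pairs (scipy 1.17.1), on scripts tested on simulated data. The members, gene lists and rules were chosen with earlier results of these data known. Named interactions were, per class, the 8 with the most RAD21 contacts, the 3 longest, the 8 with the most untreated H3K27ac contacts among pairs in both H3K27ac lists with a start site, those with an adjusted p under 0.05, the largest rise and fall, the 8 bins with the most interactions, and the genes of 6 lists. Alternatives covered the q-value threshold, bin tolerance, contact minimum, start sites and scaling. Some items that this choice covers are not reported here.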

Additional observations from a re-analysis of the deposited data

How the results depend on the processing

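Of 129 values under alternatives, 83 stayed within the counting interval or 1.5 times the main count, 45 moved further and 1 changed sign. No difference in start sites, H3K27ac anchors, bin pairs or pairs called again between members and interactions with 2 CTCF anchors changed sign. The differences below are in points, in the order H3K27ac anchors at both ends untreated and after IAA, then bin pair untreated and after IAA. Counting a CTCF anchor within 1 bin gave 11.7 for the first with 1 CTCF anchor. With RAD21 q-values of 0.01 or less there were 158 and 2096 members (no and 1 CTCF anchor), and the differences with 1 CTCF anchor were 16.3, 14.3, 9.14 and 8.70. With CTCF q-values of 0.01 or less they were 35.1, 42.4, 36.4 and 38.8 with no CTCF anchor and 11.1, 10.4, 5.16 and 6.47 with 1. With at least 15 RAD21 contacts there were 41 and 729 members with median spans of 20 and 51 kb. The differences were then 53.1, 59.3, 59.5 and 62.4 with no CTCF anchor, where start sites differed by 23.1 and pairs called again by 66.9, and 25.7, 22.3, 14.5 and 14.8 with 1, where pairs called again differed by 34.0. Counting H3K27ac anchors within 1 bin gave 15.3 and 15.1 with 1 CTCF anchor, H3K27ac q-values of 0.01 or less gave 10.1 for anchors and 6.58 for bin pairs after IAA, and letting each end of a pair differ by 1 bin gave 10.6 and 10.

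Scaling H3K27ac contacts by model totals gave 1 and 5 called pairs (from 0 and 1), medians of -0.38 and -0.39, and 8 and 24 pairs 2-fold or more lower (from 2 and 10). Over all shared pairs it gave 60 calls (from 21) and a median of -0.22 (from 0.03). At an adjusted p of 0.01, 12 shared pairs were called. Without a mismatch, the core motif differed by 23.4 points between the CTCF ends and the other ends, from 53.2. The cause of these shifts was not tested. Restricting to bin pairs 6 kb or more apart and to distinct bin pairs, both chosen after seeing the data, moved no value beyond these limits. No paired analysis was possible because the pooled lists carry no replicate numbers. For that reason no replicate could be left out either. RAD21 contacts were few, with medians of 9 and 11 among members, so interactions near the calling threshold limit every count.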
